A study of Mus musculus with 2 samples.

Results

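The genes described here encode the machinery that carries a signal from a G protein-coupled receptor to cyclic AMP and its main kinase: the subunits of heterotrimeric G proteins, the adenylyl cyclases, the subunits and inhibitors of protein kinase A (PKA), and the A-kinase anchoring proteins (AKAPs). Members were chosen by gene symbol. Of 68 rows whose symbol matched these families, 49 reached a summed count of 20 across the PTH and untreated libraries, and these 49 are the members, among 16408 rows compared and 55487 in the table. The symbol pattern also took in 2 genes that belong to none of these families. Gnasas1 is an RNA transcribed antisense to the Gnas locus, and Gnb1l encodes a WD-repeat protein that is not a G protein beta subunit. The cells were MC3T3-E1, a mouse calvarial line with osteoblast character. One group was treated with 10 nM parathyroid hormone (PTH) and labelled 1 h, and the other was left untreated and also labelled 1 h. The labels state no vehicle, no passage and no replicate culture, and each condition had 1 library.

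PTH is a peptide hormone that binds Pth1r on osteoblasts. In the textbook scheme the receptor makes the alpha subunit Gs exchange GDP for GTP and release its beta-gamma partner, and Gs then switches on adenylyl cyclase. Cyclic AMP binds the regulatory subunits of PKA and frees its catalytic subunits, AKAPs hold the kinase at particular membranes and organelles, and the small PKI proteins block the catalytic site. Free catalytic subunits can enter the nucleus, where they phosphorylate CREB, a factor that binds the cyclic AMP response element TGACGTCA or its shorter form TGACG.

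The PTH library held 70036872 counts and the untreated library 66302211. With 1 library per condition no test could be run and no p-value is given. Brackets after a ratio, PTH over untreated, hold its 95% exact interval, which covers counting error only and compares these libraries rather than the conditions. The sources used here do not say whether the deposited whole numbers are reads counted directly or estimates that were rounded, and the intervals treat them as counted reads. All 9 osteoblast lineage markers had enough counts to compare. With the scaling used here (TMM), 4 had an interval wholly above 1, 4 wholly below and 1 spanned it. Runx2, the lineage's master regulator, had 13406 counts in the PTH and 12626 in the untreated library, at 1.03 (1.01 to 1.06). Sp7 (osterix), which acts downstream of Runx2, had 1974 counts in the PTH and 4583 in the untreated library, at 0.418 (0.397 to 0.441), and Ibsp was at 0.774 (0.730 to 0.820). The receptor gene Pth1r had 4721 counts in the PTH and 5709 in the untreated library, at 0.803 (0.772 to 0.835). Bglap had the highest ratio of the 9, 1.48 (1.05 to 2.11), from 87 counts in the PTH and 57 in the untreated library. Summed endothelial markers were at 0.188 CPM (counts per 1000000 of the scaled library size) in the PTH and 0.134 CPM in the untreated library, and muscle markers at 0.535 CPM in the PTH and 1.03 CPM in the untreated library. Of 6 chondrocyte markers 3 were compared. The cartilage collagen gene Col2a1 had 38400 counts in the PTH and 27597 in the untreated library, at 1.35 (1.33 to 1.37), while Matn3 was at 0.924 (0.810 to 1.05) and Comp at 0.792 (0.620 to 1.01). Summed macrophage and osteoclast markers, 3 of 6 compared, were at 96.5 CPM in the PTH and 87.1 CPM in the untreated library, mostly from the osteoclast protease gene Ctsk, which had 6452 in the PTH and 5656 in the untreated library. Csf1r had 155 counts in the PTH and 122 in the untreated library, and Cd68 had 57 in the PTH and 67 in the untreated library. Summed adipocyte markers were at 0.796 CPM in the PTH and 0.685 CPM in the untreated library. They came from Fabp4 (45 counts in the PTH and 34 in the untreated library) and Pparg (10 and 12). Acan, Col10a1, Adgre1, Calcr, Cdh5, Kdr, Myod1, Adipoq and Plin1 were listed at 0 in both. In such a bulk sample, fewer cells with a transcript and less transcript per cell cannot be told apart. In a list of cyclic AMP target genes, drawn up with earlier results of these data known, 12 of 13 compared genes had an interval wholly above 1.5-fold in the PTH library, against 5.39% of all rows compared, and 1 had an interval wholly below its inverse, against 3.54%.

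The promoter letters of 4 members are shown as examples, and these were not chosen by ratio alone. Pkig (1.37), Gnb5 (1.37) and Gng10 (1.32), at higher ratios than Akap11 (1.31), are not shown. The windows of Gnb5 and Gng10 held neither TGACG nor CGTCA. Of the 250-base windows of Pkig, chr2:163658136-163658385 and chr2:163658208-163658457 held 0 copies of TGACG or CGTCA, and chr2:163693787-163694036 held 1. The bases just after the start of the window with 1 copy were not found in a GENCODE M21 transcript of the gene. Those of the Pkig windows with 0 copies were found in one. The letters shown are RefSeq sequences on GRCm38.p6, read 5′ to 3′ on the gene's own strand. Every TGACG and its reverse complement CGTCA is in capitals, so that an 8-letter run in capitals is the full palindrome. Prkar1a, the main regulatory subunit of PKA, is shown over 30 bases, from 60 to 31 bases before one of its RefSeq starts (chr11:109650889-109650918, plus strand), a stretch that also lies just downstream of another RefSeq start of the gene. The other 3 are the 250 bases before a start, for Akap11 (chr14:78536861-78537110, minus strand), Akap13 (chr7:75455284-75455533, plus strand) and Gng8 (chr7:16891536-16891785, plus strand).
Prkar1a: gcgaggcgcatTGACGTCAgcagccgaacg
Akap11: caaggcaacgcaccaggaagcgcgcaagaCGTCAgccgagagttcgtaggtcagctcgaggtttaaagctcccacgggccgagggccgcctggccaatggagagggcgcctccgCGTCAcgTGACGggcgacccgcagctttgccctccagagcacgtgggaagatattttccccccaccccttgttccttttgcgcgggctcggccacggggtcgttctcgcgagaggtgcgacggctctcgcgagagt
Akap13: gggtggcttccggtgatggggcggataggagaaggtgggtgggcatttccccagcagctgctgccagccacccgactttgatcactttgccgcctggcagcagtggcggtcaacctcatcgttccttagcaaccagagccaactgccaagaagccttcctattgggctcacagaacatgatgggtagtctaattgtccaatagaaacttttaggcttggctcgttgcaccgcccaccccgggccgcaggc
Gng8: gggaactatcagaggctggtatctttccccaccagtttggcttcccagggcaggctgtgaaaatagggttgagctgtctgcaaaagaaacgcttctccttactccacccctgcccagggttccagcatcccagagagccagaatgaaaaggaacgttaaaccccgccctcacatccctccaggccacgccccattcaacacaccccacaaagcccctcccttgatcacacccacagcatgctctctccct

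Promoter sequences were matched for 41 of the 49 members, over 68 start sites. The full palindrome stood in 2 of these 68 windows (2.94%), both of them windows of Prkar1a around the same element. Among the 13697 windows of genes compared in this table the share was 2.97%, and among all 32851 windows it was 1.79%. The short form, counted on either strand and including the full one, stood in 20 of 68 member windows (29.4%), against 30.2% for genes compared. In the cyclic AMP target list it stood in 11 of 16 windows. The window of Akap11 printed above held 3 copies of the short form, and those of Akap13 and Gng8 held none. Another Akap11 window (chr14:78522703-78522952) held 0 copies. The bases just after the start of the printed Akap11 window were not found in a GENCODE M21 transcript of the gene. Those of the other window were found in one. A match is a string of letters and not a shown binding site, and windows without one say nothing of sites elsewhere. The members with no entry were Adcy6, Akap12, Gnai2, Gnal, Gnasas1, Gnb4, Gng11 and Gngt2.

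The question for the families as a whole is whether their transcripts differed between cells with and without 1 h of PTH. Most were close to level. The size rule asked that the entire interval of a gene lie beyond 1.5-fold. Of 49 members, 1 had more reads by this rule (Gnasas1), against 5.39% of all rows compared, 1 had fewer (Gng8), against 3.54%, and 47 were neither. The median log2 ratio of the members was 0.01 and that of all rows compared was 0.00. Of the members, 18 had an interval wholly above 1, 14 wholly below 1 and 17 spanned 1. This tally holds for TMM scaling and was not made for other scalings, under which narrow intervals near 1 can change sides. Total-count scaling took the ratio of Gnas from 1.03 to 1.00 and that of Gnb2 from 0.995 to 0.970, each outside its interval.

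Both genes past the rule were low in counts. The 35 members with at least 1000 counts had ratios between 0.852 and 1.53, and none of them was past the rule, against 3.25% of rows at that depth with more reads and 1.57% with fewer. Their log2 ratios had an SD of 0.20 around a median of 0.03, beside an SD of 0.39 over the 9549 rows at that depth. The interval lay wholly between ratios of 4/5 and 5/4 for 30 of the 35 (85.7%), beside 73.3% of all rows at that depth. The width of an interval depends on counts, and counts above 1000 were not matched between members and other rows. The 14 members with fewer counts had ratios between 0.202 and 3.27. With the limits moved in to ratios of 5/4 and 4/5, 5 members had more reads (Akap11, Akap13, Gnasas1, Gng10 and Pkig), against 9.11% of rows compared, and 2 had fewer (Gng8 and Prkar1b), against 7.39%.

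**Figure D1:**
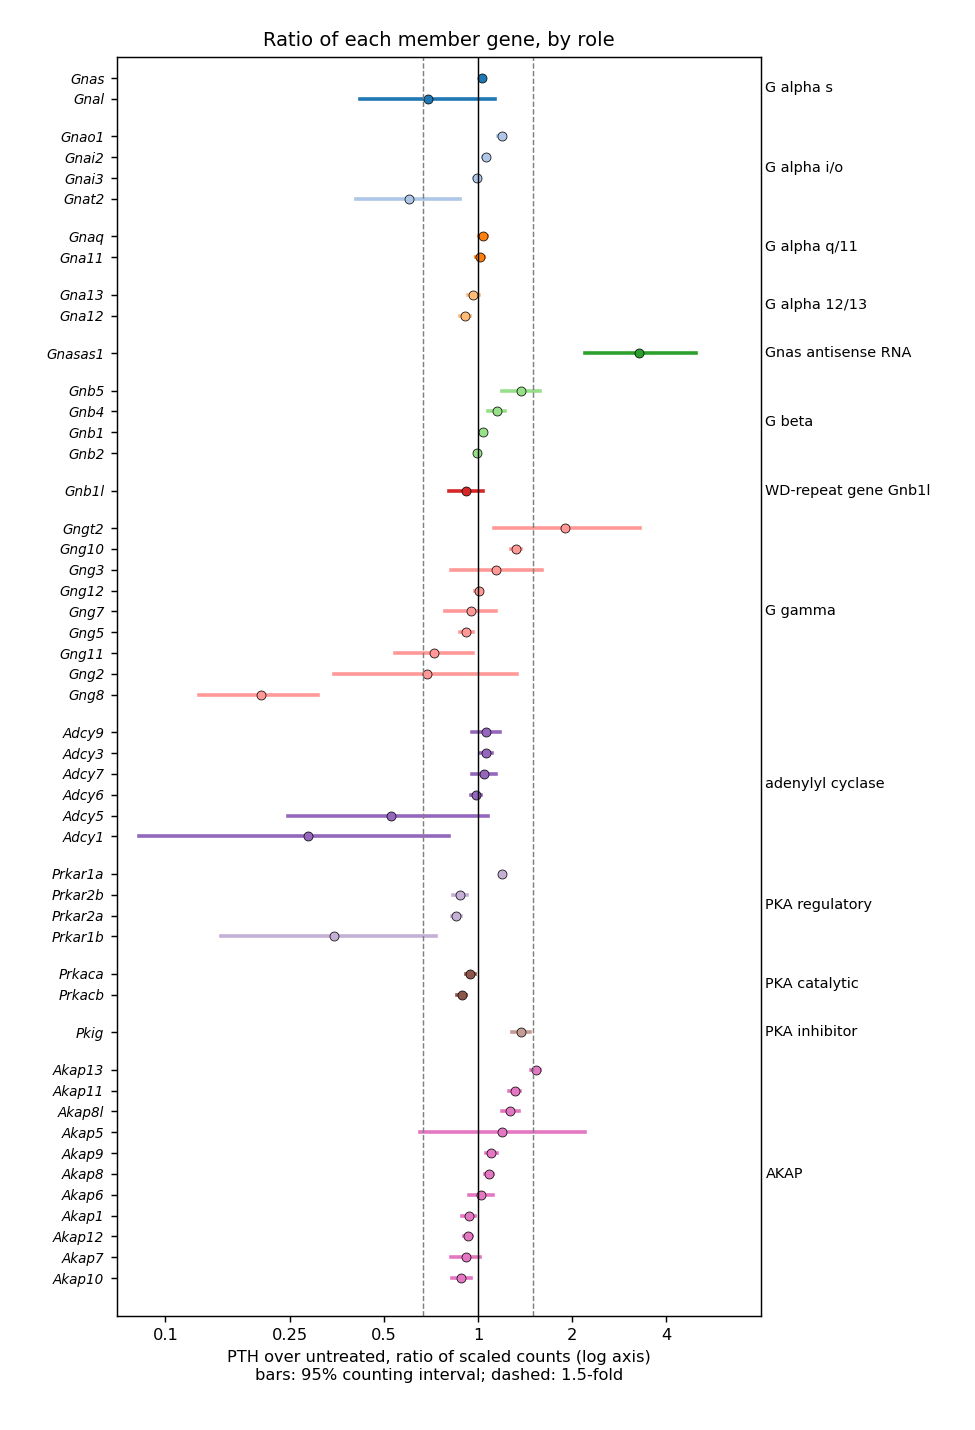
Ratio of scaled counts, PTH over untreated, for each of the 49 members on a log axis, grouped by role, with 1 library per condition. Points are ratios, bars are 95% counting intervals and dashed lines mark 1.5-fold. Gnasas1 (interval 2.20 to 4.98) and Gng8 (0.128 to 0.307) have bars wholly beyond the dashed lines.

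**Figure D2:**
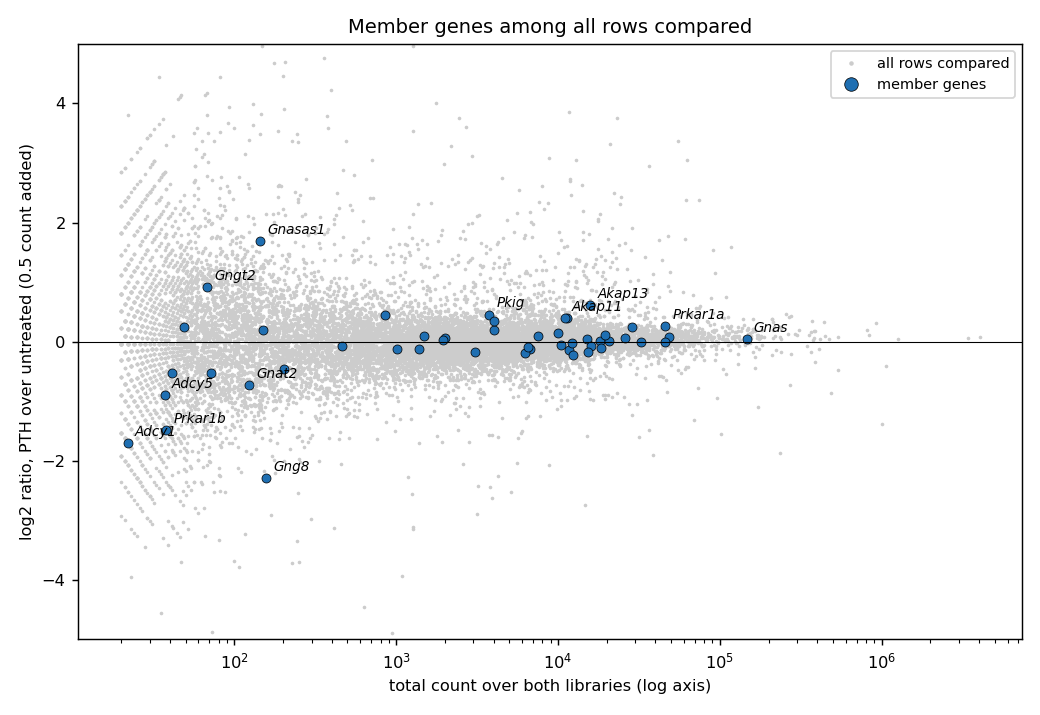
Log2 ratio, PTH over untreated, against total count over both libraries (log axis), with members in blue over all 16408 rows compared in grey. Members with 1000 or more counts lie between -0.23 and 0.61 on the log2 scale, and 153 rows beyond a log2 ratio of 5 in either direction are outside the plot.

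Among the alpha subunits, which bind GTP and choose the effector, none of 10 compared members was past the rule. Gnas, which encodes Gs, the subunit that couples Pth1r to adenylyl cyclase, had 75163 counts in the PTH and 71103 in the untreated library, the most of any member, and a ratio of 1.03 (1.02 to 1.04). The row lies at chr2:174284320-174346744 and merges 24 annotated transcripts, including those from alternative first exons, so products other than Gs are counted in it. Gnal, the Gs relative of olfactory neurons, had 30 counts in the PTH and 42 in the untreated library. The row of the hormone's own G protein was thus close to level, and Gnal was too scarce to place, with an interval of 0.419 to 1.13.

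The alpha subunits of the Gi/o class, most of which inhibit adenylyl cyclase, were more varied. Gnai2 had 25379 counts in the PTH and 23324 in the untreated library, a ratio of 1.06 (1.04 to 1.08). Gnai3 had 16564 and 16183 counts in the PTH and untreated libraries, at 0.994 (0.973 to 1.02), while Gnai1 was listed at 0 in both. Gnao1, the Go subunit best known from brain, was well represented in these cells, with 15847 counts in the PTH and 12949 in the untreated library. Its ratio of 1.19 (1.16 to 1.22) was the highest of the 10 alpha subunits. Gnat2, the transducin of cone photoreceptors, had 47 counts in the PTH and 76 in the untreated library, and its ratio of 0.601 (0.408 to 0.875) was the lowest of them.

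The Gq class activates phospholipase C, a second route described for Pth1r. The G12/13 class is given beside it. Gnaq had 7774 counts in the PTH and 7290 in the untreated library, a ratio of 1.04 (1.00 to 1.07). Gna11 had 9310 and 8936 counts in the PTH and untreated libraries, with a ratio of 1.01 that was under 1 with total-count and upper-quartile scaling. Gna13 was at 0.965 (0.929 to 1.00). Gna12 had 5651 counts in the PTH and 6040 in the untreated library, at 0.909 (0.876 to 0.942), with an interval wholly below 1. None of these 4 left the band between 0.876 and 1.07, bounds of the intervals included.

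Levels can be set between genes only per length, and were taken as CPM per kb of merged exon. On that scale Gnas stood at 97.2 in the PTH and 94.7 in the untreated library, and Gnai2 at 97.2 in the PTH and 91.9 in the untreated library, so these 2 were the most abundant alpha subunits in both libraries. Of the summed alpha level in the PTH library, Gs made up 25.9%, Gi/o 51.0%, Gq/11 13.6% and G12/13 9.48%. In the untreated library Gs made up 25.8%, Gi/o 50.1%, Gq/11 13.6% and G12/13 10.5%. The merged exons of Gnas, 11186 bases, are longer than its longest coding transcript. With that transcript as the length, a choice made after the data were seen, Gs came to 42.3% in the PTH and 42.5% in the untreated library, and Gi/o to 43.1% in the PTH and 42.1% in the untreated library. The order of the 2 classes in the untreated library thus depended on the length used, and the shares differed little between libraries with either.

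Gnasas1 was the member with the highest ratio. It had 111 counts in the PTH and 33 in the untreated library, and a ratio of 3.27 (2.20 to 4.98). The transcript lies at chr2:174281237-174295436 on the minus strand, opposite the upstream end of Gnas, and GENCODE M21 names the same identifier Nespas, an antisense RNA of this imprinted locus. It shares 38.5% of its exonic length with exons of the opposite strand, among them exons of Gnas, which had far higher counts. The sources used here do not say whether counting used strand, so the count of Gnasas1 is uncertain, and the part of Gnas reads in it was not tested.

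Beta subunits pair with gamma subunits, and the released pair also signals. Of 4 compared, 3 had an interval wholly above 1 and 1 spanned it, with TMM scaling. The most abundant, Gnb2 and Gnb1, were near level, and total-count scaling took both ratios below their intervals. Gnb2 had 23266 counts in the PTH and 22717 in the untreated library, at 0.995 (0.976 to 1.01), and Gnb1 was at 1.04 (1.01 to 1.06). These 2 made up most of the beta level, with Gnb2 at 66.2% in the PTH and 67.5% in the untreated library. Gnb4 was at 1.15 (1.08 to 1.22). Gnb5, a divergent beta subunit that partners RGS proteins in place of gamma subunits, had 502 counts in the PTH and 356 in the untreated library. Its ratio of 1.37 (1.19 to 1.57) was the highest of the 4 and its interval crossed 1.5. Gnb1l was at 0.912 (0.805 to 1.03).

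Gamma subunits, which carry the lipid anchor of the beta-gamma pair, were the most spread of the G protein families. The extremes were genes with few counts, Gng8 with 157 over both libraries and Gngt2 with 68. The well-counted Gng10, Gng12 and Gng5 lay between 0.916 and 1.32. Gng8, described mainly in olfactory and vomeronasal neurons, had 27 counts in the PTH and 130 in the untreated library, a ratio of 0.202 (0.128 to 0.307), which is 4.96-fold lower in the PTH library (3.26 to 7.81). The gene (chr7:16891786-16895436, plus strand) shares no exon with another annotated gene. It was a minor gamma subunit in both libraries, at 0.205% of the summed gamma level in the PTH and 1.15% in the untreated library. Gng12, which had 10559 counts in the PTH and 10205 in the untreated library, was level at 1.00 (0.978 to 1.03), and its ratio was under 1 with total-count and upper-quartile scaling. Gng5 was at 0.916 (0.873 to 0.961).

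Gng10 had the highest gamma level per kb, 72.2 in the PTH and 54.6 in the untreated library, from 6556 counts in the PTH and 4818 in the untreated library. The ratio was 1.32 (1.27 to 1.37), past 5/4 but not 1.5-fold. Of its exonic length, 72.0% is shared with Gm20503 on the same strand, a row listed at 0 in both libraries, so how reads were divided between them is uncertain. The remaining gamma genes had few counts. Gngt2, a gamma subunit of cones, had 45 counts in the PTH and 23 in the untreated library and the highest gamma ratio, 1.90 (1.13 to 3.29), and Gng11 was at 0.722 (0.541 to 0.961). Gng3 and Gng7, gamma subunits known from brain, were at 1.14 and 0.946, and Gng2 at 0.688, all 3 with intervals that spanned 1. Gng3 shares 24.2% of its exonic length with Bscl2 on the opposite strand, which had 1054 counts in the PTH and 1137 in the untreated library. Gngt2 shares 12.5% with Abi3 on the opposite strand, which had 203 in the PTH and 321 in the untreated library. The part of such reads in the counts of Gng3 and Gngt2 was not tested.

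The adenylyl cyclases make cyclic AMP from ATP, and 6 of 10 had enough counts to compare, none past the rule. Adcy6, a cyclase that calcium and Gi inhibit, had 6132 counts in the PTH and 6056 in the untreated library, a ratio of 0.983 (0.949 to 1.02). Adcy3, first known from olfactory neurons, had 3904 and 3571 counts in the PTH and untreated libraries, at 1.06 (1.01 to 1.11), and shares 22.1% of its exonic length with Cenpo on the opposite strand. Adcy7 and Adcy9 were at 1.05 (0.959 to 1.14) and 1.06 (0.959 to 1.18). Per kb of exon Adcy6 took 49.2% of the cyclase level in the PTH and 51.0% in the untreated library, and Adcy3 took 34.0% in the PTH and 32.7% in the untreated library. The other compared cyclases, Adcy5 and Adcy1, were scarce. Adcy5 had 13 counts in the PTH and 24 in the untreated library, and Adcy1, a calcium-stimulated cyclase of neurons, had 5 in the PTH and 17 in the untreated library, at 0.286 (0.0824 to 0.806).

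**Figure D3:**
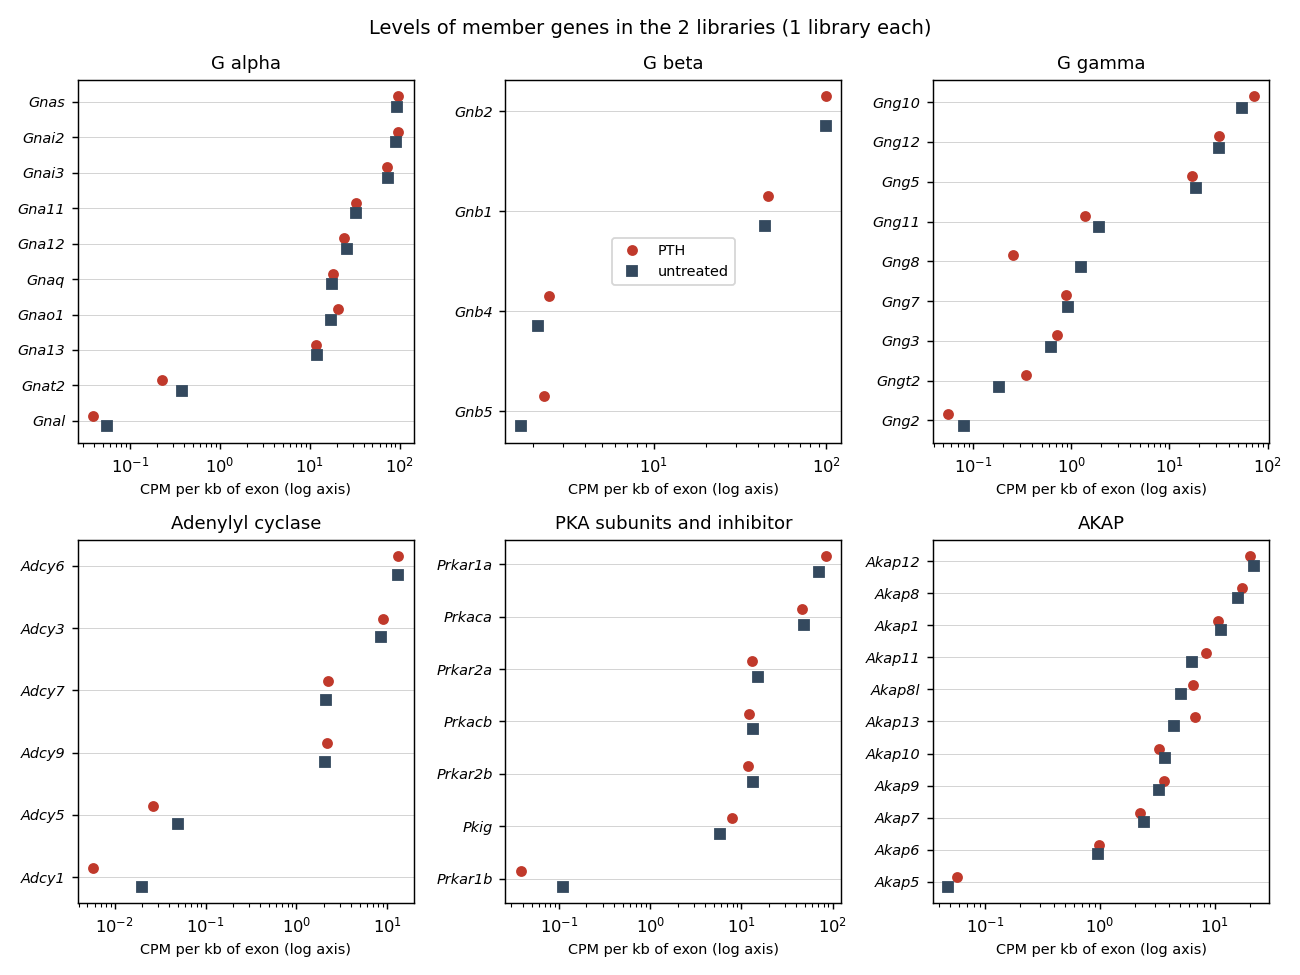
Level of 47 members (all but Gnasas1 and Gnb1l) in CPM per kb of merged exon (log axes), for the PTH library (red circles) and the untreated library (dark squares), 1 library each, in 6 role groups. The 2 symbols of a gene lie close together for the abundant members, and the wider gaps, such as Gng8 at 0.257 in the PTH and 1.27 in the untreated library, are at low levels.

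Of the 4 PKA regulatory subunits, Prkar1a lay above 1 and the other 3 below. Prkar1a, the type I regulatory subunit whose palindrome is printed above, had 25353 counts in the PTH and 20583 in the untreated library, at 1.20 (1.17 to 1.22). The type II regulatory subunits, which bind AKAPs most tightly, lay below 1. Prkar2a had 5776 counts in the PTH and 6585 in the untreated library, at 0.852 (0.822 to 0.883), and Prkar2b had 2951 in the PTH and 3274 in the untreated library, at 0.875 (0.833 to 0.920). Prkar1b, a neuronal type I subunit, had 10 counts in the PTH and 28 in the untreated library, at 0.347 (0.150 to 0.736), and shares 8.95% of its exonic length with Gm15672. Prkar1a and the type II subunits kept these sides of 1 under all 4 scalings, and none of the 4 subunits was past the 1.5-fold rule.

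Both catalytic subunits also lay below 1. Prkaca, the most widely expressed form, had 7912 counts in the PTH and 8130 in the untreated library, at 0.945 (0.916 to 0.975). Prkacb had 7302 counts in the PTH and 7999 in the untreated library, at 0.886 (0.859 to 0.915). Per kb of exon the type I regulatory level was 3.43 times the type II level in the PTH library and 2.47 times in the untreated library. The summed regulatory level was 1.89 times the catalytic level in the PTH library and 1.60 times in the untreated library. With the longest coding transcript as the length, the same quotients were 3.54 and 2.56 for type I over type II, and 1.80 and 1.51 for regulatory over catalytic, in the PTH and untreated libraries. These are transcript levels of 1 library each, with no measure of the spread between cultures.

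Of the PKI genes, whose products occupy the catalytic site like a substrate and carry the kinase out of the nucleus, only Pkig had enough counts. It had 2198 counts in the PTH and 1558 in the untreated library, at 1.37 (1.28 to 1.46), with a gene body at chr2:163658386-163726158. Pkia, with 9 counts in the PTH and 10 in the untreated library, lay just under the limit of 20, as Adcy1 lay just over it. Pkib was listed at 0 in both libraries.

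**Figure D4:**
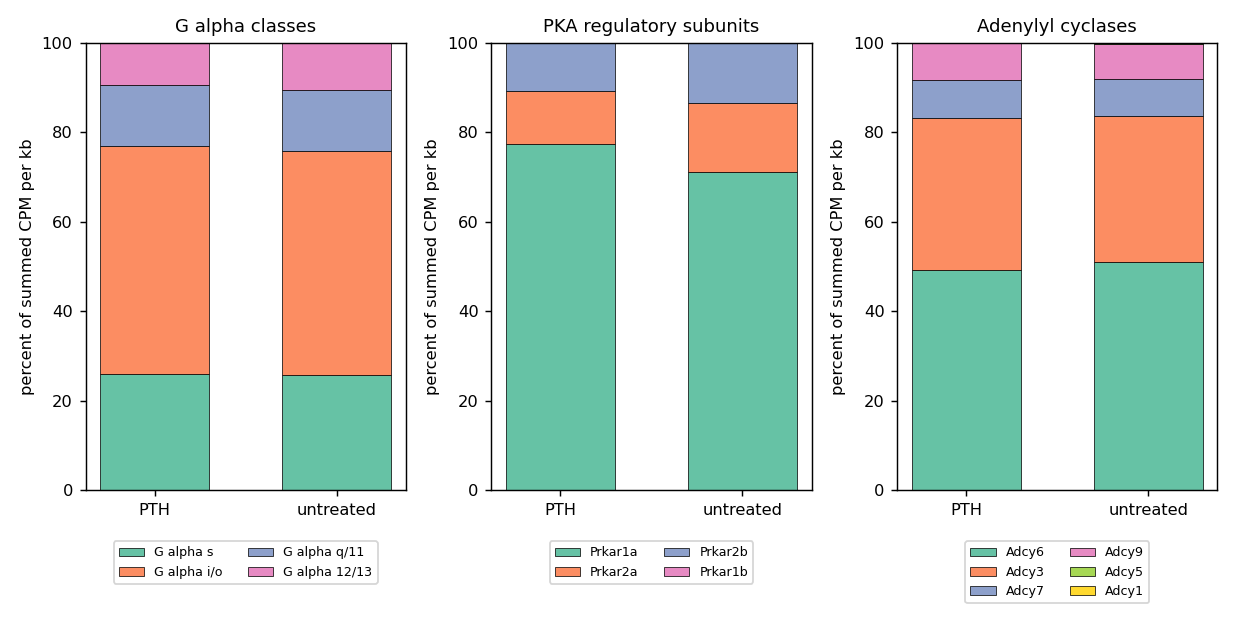
Share of the summed CPM per kb of merged exon taken by the classes of G alpha subunit, the PKA regulatory subunits and the adenylyl cyclases, in the PTH and the untreated library (1 each). Prkar1a takes 77.4% of the regulatory level in the PTH and 71.1% in the untreated library, while the alpha classes and the cyclases hold nearly the same shares in both.

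Of 14 AKAP genes 11 were compared, and none was past the rule. Akap13, an anchor, came nearest. It had 9705 counts in the PTH and 6170 in the untreated library, and a ratio of 1.53 (1.48 to 1.58), the highest of the 35 members with at least 1000 counts, with the lower bound just inside 1.5. The gene spans chr7:75455534-75754609. Akap11, an anchor that also binds the kinase GSK3, had 6321 counts in the PTH and 4692 in the untreated library, at 1.31 (1.26 to 1.36). Akap8l had 2266 counts in the PTH and 1739 in the untreated library, at 1.27 (1.19 to 1.35). Its relative Akap8, a nuclear anchor, lies beside it in the same orientation, at chr17:32303672-32321238 against chr17:32321424-32350607 for Akap8l. Akap8 had 10250 counts in the PTH and 9177 in the untreated library, at 1.08 (1.05 to 1.12).

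The other anchors were closer to level or slightly below. Akap9, of the Golgi and centrosome, was at 1.10 (1.06 to 1.15), and Akap6, of the nuclear envelope in muscle cells, at 1.02 (0.934 to 1.12), a ratio that was under 1 with total-count scaling. Akap12 (gravin) was the most abundant anchor per kb of merged exon, at 20.1 in the PTH and 21.7 in the untreated library, and had a ratio of 0.926 (0.899 to 0.953). With the longest coding transcript as the length, Akap8 was the most abundant, at 39.7 in the PTH and 36.6 in the untreated library, against 21.0 in the PTH and 22.7 in the untreated library for Akap12. Akap1, of the mitochondrial outer membrane, was at 0.933 (0.889 to 0.980) and Akap7 at 0.914 (0.821 to 1.02). Akap10 had 1463 counts in the PTH and 1607 in the untreated library and the lowest ratio of the family, 0.884 (0.823 to 0.950). Akap5, with 27 counts in the PTH and 22 in the untreated library, could not be placed, with an interval of 0.654 to 2.20. With TMM scaling the intervals of 5 anchors lay wholly above 1, those of 3 wholly below and those of 3 spanned 1.

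The 19 matching rows under the count limit were 10 listed at 0 in both libraries and 9 with a few counts. The rows at 0 were Gnai1, Gnat1, Gnat3, Gna15, Gngt1, Adcy2, Adcy8, Pkib, Akap3 and Akap4. Counts in the PTH and untreated libraries were 4 and 0 for Gnaz, 3 and 0 for Gna14, 2 and 10 for Gnb3 and 11 and 4 for Gng4. They were 2 and 1 for Gng13, 5 and 6 for Adcy10, 0 and 4 for Adcy4, and 0 and 4 for Akap14, besides Pkia. Several of these are tissue-restricted, such as the rod transducin Gnat1, the taste cell gene Gnat3 and the sperm anchors Akap3 and Akap4. By sampling, a listed 0 could hide up to 3 counts, or 0.0434 CPM in the PTH and 0.0447 CPM in the untreated library. The table held 598 rows at 0 in 1 library and 10 to 29 in the other, so no bound is read from the zeros here.

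Lists of other pathway genes were read against the same shares of all rows compared, 5.39% with more reads and 3.54% with fewer. Of 12 compared genes for cyclic AMP effectors and handling other than PKA, 2 had more reads by the 1.5-fold rule and none fewer. Rapgef3 (EPAC1), which activates Rap when it binds cyclic AMP, had 390 counts in the PTH and 149 in the untreated library, at 2.54 (2.10 to 3.09). Rapgef2, another Rap exchange factor, had 8725 counts in the PTH and 4220 in the untreated library, at 2.01 (1.94 to 2.08). In the list of PKA substrates and CREB-route factors, 3 of 17 had more reads and none fewer. These were Crem, a cyclic AMP-responsive factor, at 12.2 (10.6 to 14.2), Sik1, a salt-inducible kinase, at 7.70 (7.45 to 7.96), and Hdac5, a class IIa histone deacetylase, at 3.76 (3.66 to 3.87). Crem and Sik1 are also in the cyclic AMP target list. The list's median log2 ratio was 0.00, and its other 14 genes were neither.

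Counts in the other 3 lists were at or near those shares, given the lists' sizes. Among 15 chaperones and modulators of G proteins, 1 had fewer reads and none more. This was Gpsm3, a regulator that binds Gi subunits, with 38 counts in the PTH and 93 in the untreated library, at 0.397 (0.265 to 0.585), and with 16.9% of its exonic length shared on the same strand. None of 16 effectors of Gq, G12/13 and beta-gamma was past the rule, a list that again holds Akap13, and none of 18 A-kinase anchors with other symbols. The medians of these 3 lists were -0.05, 0.03 and 0.00 on the log2 scale. The cyclic AMP target genes had a median of 2.62, beside 0.01 for the members and 0.00 for all rows compared. That list was drawn up with earlier results of these data known, so its high median is no independent check. Cited2 in that list went the other way, at 0.328 (0.320 to 0.337).

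**Figure D5:**
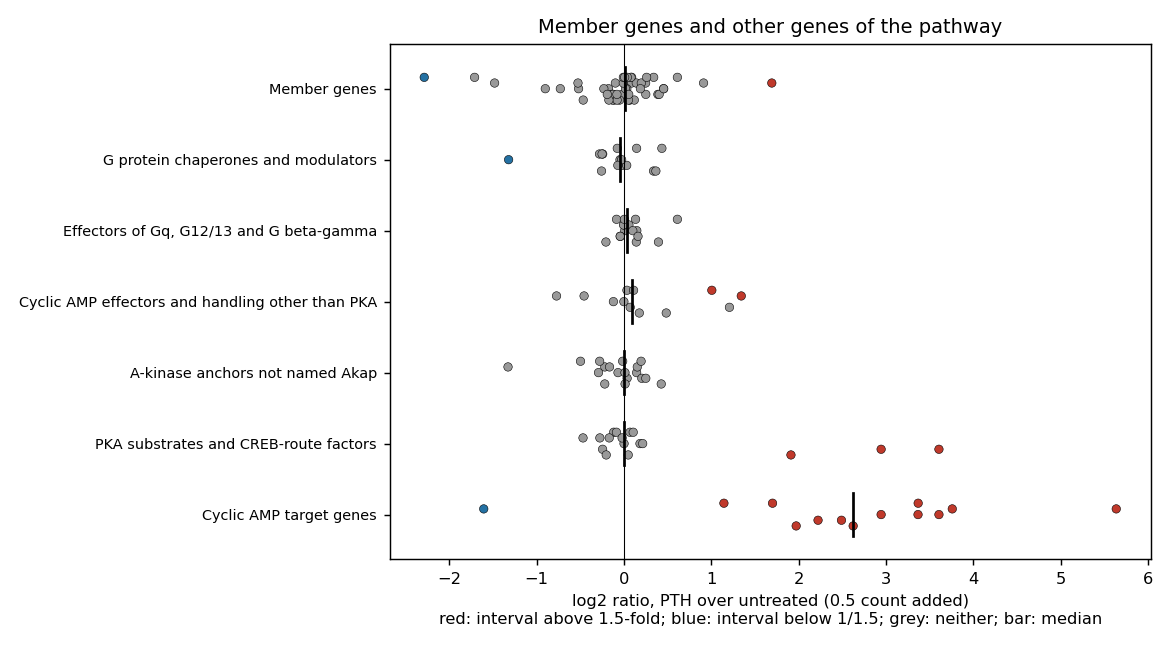
Log2 ratio, PTH over untreated, of the members and of 6 lists of other pathway genes with a total count of 20 or more, 1 library per condition. Red marks intervals wholly above 1.5-fold, blue wholly below its inverse, grey neither, and black bars are medians. The members centre on 0.01, while 12 of 13 cyclic AMP target genes lie to the right in red. The target list was drawn up with earlier results of these data known.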

How the data were processed

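RNA from MC3T3-E1 cells was sequenced in 2 libraries, PTH and untreated. The authors deposited counts per gene in whole numbers, and whether these are directly counted reads or rounded estimates is not given in the sources. HISAT2 and the mm10 build are named, per the submitters' processing notes. The counter, its annotation and any use of strand are not given in the sources. Identifiers were matched to GENCODE M21 (GRCm38, also called mm10), with all 68 matching rows found, for positions, exonic length and shared exons.

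Counts were scaled by TMM effective library sizes (edgeR 4.0.16, R 4.3.3) over the 16408 rows whose 2 counts sum to at least 20. With 1 library per condition, edgeR's quasi-likelihood test had no residual degrees of freedom and was not fitted. Ratios carry 95% exact conditional (Clopper-Pearson) intervals (scipy 1.17.1, Python 3.11.15), which treat reads as independent and cover counting error only, although PCR copies are not independent molecules. For log2 ratios 0.5 count was added. The interval was tried on simulated Poisson counts, the model it assumes, with no spread between cultures. That trial checks the calculation and cannot show how the interval behaves for real libraries. Every member past the rule was named, with the highest level and the highest and lowest ratio of each role. Alternatives were other scalings (among them DESeq2 1.42.0 size factors), filters, fold limits and widened intervals. The members and lists were chosen with earlier results of these data known.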

Additional observations from a re-analysis of the deposited data

How the results depend on the processing

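Under the 3 other scalings, the count filters of 1, 50 and 100, the 2-fold limit, and intervals widened for an assumed coefficient of variation of 0.1 or 0.2 per library, 1 member had more reads (Gnasas1) and 1 had fewer (Gng8). With limits at ratios of 5/4 and 4/5 the counts were 5 and 2. Without members that share 20% or more of their exonic length with another gene, 0 had more reads, since Gnasas1 is among the 6 left out, and without Gnasas1 and Gnb1l, an alternative chosen after the data were seen, it was also 0. These counts come from no test, so no count at an unadjusted p exists. The median log2 ratio of the members lay between -0.03 (total-count scaling) and 0.03 (filter of 100). Total-count scaling moved every log2 ratio by -0.04. Of 282 recomputed member ratios, 273 lay inside the interval reported and 9 outside it. Those outside were Gnas and Gnai2 with total-count and upper-quartile scaling, and Gnao1, Gnai3, Gnb1, Gnb2 and Prkar1a with total-count scaling. These members have many counts, and their narrow intervals do not cover the choice of scaling. Further, 3 members crossed a ratio of 1 under a scaling (Gna11, Gng12 and Akap6). No paired analysis was possible because each condition had 1 library. Leaving out a replicate was not possible for the same reason, and the spread between cultures is unknown. Members with few counts, such as Adcy5, Akap5, Gnal and Gng2, have wide intervals that span 1.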

Other observations

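Rows on the opposite strand of members also had counts. The row 4930488L21Rik, opposite exons that make up 2.57% of Gnao1, had 76 counts in the PTH and 20 in the untreated library. Gm19531, opposite 7.96% of the exonic length of Gnb5, had 28 counts in the PTH and 2 in the untreated library. Cyp51, a sterol synthesis gene opposite 0.78% of the exonic length of Akap9, had 53772 counts in the PTH and 37601 in the untreated library. These are counts as deposited, not scaled, and the part of such reads in the members' counts was not tested.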
